A study of Homo sapiens with 2 samples.

Results

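The genes of 4 ligands of the epidermal growth factor receptor (EGFR), EPGN, EREG, AREG and BTC, lie together on chromosome 4, and p52 binding around them was examined in MDA-MB-231 cells treated with TWEAK. p52, cut from the NFKB2 precursor, is the NF-κB subunit that the non-canonical pathway sends to the nucleus. The genes were selected on p52 summits seen around AREG in these same lists, so the presence and strength of summits there are given as a description and carry no test. A summit is the single base at which a ChIP-seq peak is highest. Every summit within 100 kb of any of the 4 gene bodies was taken, which gave 3 of the 2007 summits of replicate 1 and 3 of the 1467 summits of replicate 2, around 4 of 20033 protein-coding genes.

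MDA-MB-231 is an established line from triple-negative breast cancer (TNBC). Both libraries came from cells starved for 8 h and then kept for 48 h in 10 ng/ml TWEAK, the cytokine that activates the receptor Fn14, with fresh TWEAK after 24 h. They form 1 group of 2 replicates, stated for cell-line ChIP-seq in the study's methods to be biological. Libraries of untreated cells, of IgG or of input were not analysed here. A summit therefore shows where p52 was found after TWEAK and not whether TWEAK changed it. The study's methods name no antibody for this p52 ChIP. Whether the NFKB2 precursor was also pulled down is therefore not known. The lists give for each summit a value taken as −log10 of its q-value, with a median of 10.3 in replicate 1 and 9.47 in replicate 2. Read depth is unknown, and the lists hold fewer rows than their highest peak number. A place without a summit may therefore have been below the detection of that library or have held a called peak that is not in the list.

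The 4 proteins are made as membrane-anchored precursors whose outer part is cut off and binds EGFR on the same or a neighbouring cell. Receptor pairs of the ERBB family then signal through RAS and MAP kinases to growth, migration and wound repair, and EGFR is commonly abundant in TNBC. NF-κB dimers reach DNA at κB elements, which can lie in promoters or in enhancers far from the gene. The order along the chromosome, read from the 5′ side of the plus strand, was EPGN (epigen, ENSG00000182585.10, 74308470 to 74316789), EREG (epiregulin, ENSG00000124882.4, 74365145 to 74388749), AREG (amphiregulin, ENSG00000109321.11, 74445136 to 74455005) and BTC (betacellulin, ENSG00000174808.12, 74744759 to 74794523). All coordinates are on hg38 with gene bodies from GENCODE. BTC is on the minus strand and the other genes are on the plus strand.

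The 3 summits of each replicate fell at the same 3 places, so each place was seen in both libraries. The first lay in an intron of MTHFD2L, a gene of mitochondrial folate metabolism next to EPGN, and is called the MTHFD2L intron site. The other two lay in intergenic sequence beyond the 3′ end of AREG, and are called the AREG near site and the AREG far site. Their plus-strand sequence is shown for 100 bp either side of the summit of replicate 1, because it carries the κB elements that the results below turn on. In the AREG sites the capitals mark matches to the κB consensus, sought on both strands. In the MTHFD2L intron site no exact match was found. There the capitals mark the match with 1 mismatch that lay closest to the summit of replicate 1.
MTHFD2L intron site, chr4:74231176-74231376: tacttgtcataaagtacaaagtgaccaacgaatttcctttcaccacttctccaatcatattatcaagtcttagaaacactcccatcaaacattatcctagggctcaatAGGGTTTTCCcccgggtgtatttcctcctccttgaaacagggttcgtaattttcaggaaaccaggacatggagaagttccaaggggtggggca
AREG near site, chr4:74505443-74505643: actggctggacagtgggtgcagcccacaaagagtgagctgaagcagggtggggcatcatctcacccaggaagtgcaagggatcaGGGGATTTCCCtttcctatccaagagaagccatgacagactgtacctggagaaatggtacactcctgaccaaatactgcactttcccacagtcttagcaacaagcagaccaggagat
AREG far site, chr4:74546102-74546302: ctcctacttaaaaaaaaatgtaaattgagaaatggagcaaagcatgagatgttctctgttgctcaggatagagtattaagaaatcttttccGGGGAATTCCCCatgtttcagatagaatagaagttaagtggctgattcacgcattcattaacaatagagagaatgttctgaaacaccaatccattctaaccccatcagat

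The AREG near site was the strongest of the cluster by a wide margin. Its summit was at 74505543 in both replicates, the same base, with −log10 q of 106 in replicate 1 and 87.2 in replicate 2. It ranked 35 of 2007 and 25 of 1467, which is within the top 1.74% and 1.70% of the lists, and took rank 3 of the 96 and rank 3 of the 59 summits on chromosome 4. Its values were 10.3 and 9.21 times the medians of the lists. On chromosomes 1 to 22, X and Y alone it ranked 25 of 1804 and 10 of 1225. The summit lay 50538 bp past the 3′ end of AREG and 60407 bp from its 5′ end.

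The AREG far site followed 40659 bp further on in replicate 1 and 40651 bp in replicate 2. Its summits, 74546202 and 74546194, stood 8 bp apart and reached 19.1 and 8.95 in −log10 q. It was above the median of replicate 1, at rank 581, and just below that of replicate 2, at rank 784. It lay 91197 and 91189 bp past the 3′ end of AREG, so AREG had 2 summits within 100 kb in each replicate.

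The MTHFD2L intron site was weak in both lists. The summits, 74231276 and 74231291, stood 15 bp apart, reached 4.38 and 7.08 in −log10 q and took ranks 1639 and 934. It lay 77194 and 77179 bp upstream of the 5′ end of EPGN. The nearest annotated start site was one of MTHFD2L itself, 7208 and 7223 bp away.

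**Figure D1:**
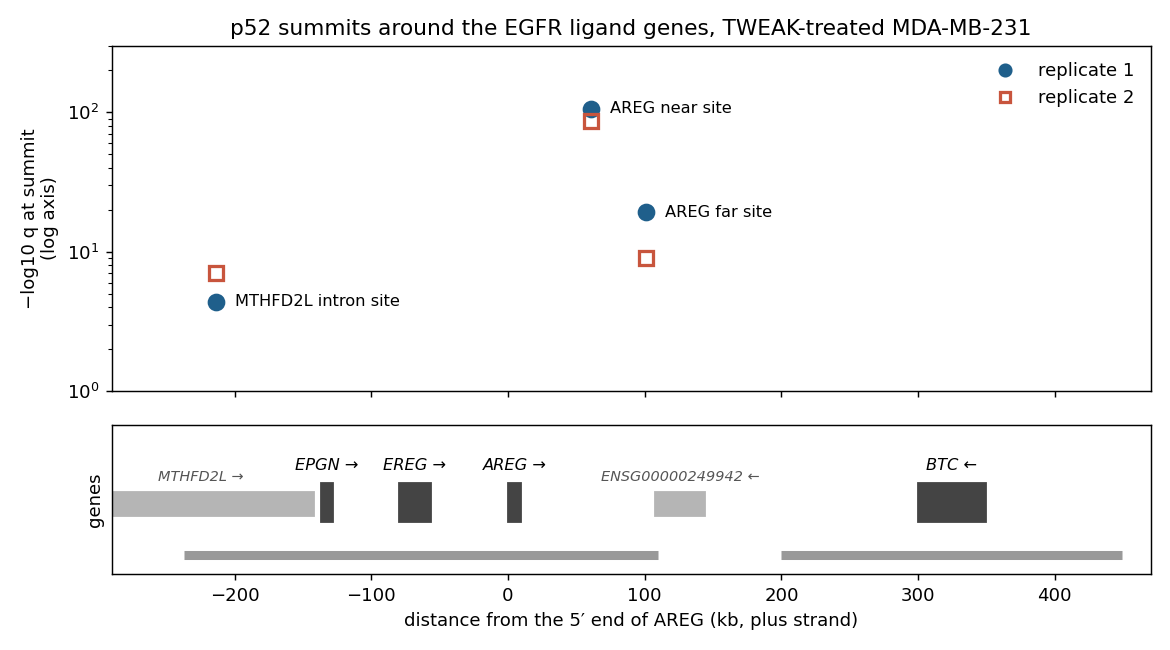
−log10 q of each p52 summit (log axis) against distance from the 5′ end of AREG in kb, for replicate 1 (filled circles) and replicate 2 (open squares), above the gene bodies with their strand as an arrow; dark boxes are the 4 ligand genes, pale boxes are the genes nearest to a summit, and the grey bars mark sequence within 100 kb of a ligand gene. No symbol stands over a ligand gene, and the highest pair, at 106 and 87.2, is the AREG near site.

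No summit of either list lay in the body or at a start site of a ligand gene. Most genes lacked a summit even within 50 kb, where 16.7% of all protein-coding genes had one in replicate 1 and 10.7% in replicate 2. The absence is therefore not read as a trait of the ligand genes. EPGN, EREG and AREG stood together inside 1 stretch without summits, 274267 bp long in replicate 1 and 274252 bp in replicate 2, between the MTHFD2L intron site and the AREG near site. BTC stood in a longer one, which ran for 970 kb in replicate 1 and 2501 kb in replicate 2. The peak names are numbered along the chromosome, and no number was skipped from the summit before EPGN to the summit past BTC in either list, so no numbered peak of this stretch was missing from the lists. The same was not checked around other genes.

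The members therefore differed in how close a summit came. AREG was nearest, at 50.5 kb from its gene body in both replicates. EPGN was next, at 77.2 kb in both. EREG, whose product binds both EGFR and ERBB4, had no summit within 100 kb, and the AREG near site was its nearest, at 116794 bp from the gene body. BTC, another ligand of both receptors, had none within 100 kb either, and the AREG far site was its nearest, at 199 kb. Of the 4 genes, 2 had a summit within 100 kb in each replicate, against 25% of all protein-coding genes in replicate 1 and 16.8% in replicate 2. The same 2, EPGN and AREG, had a site shared by both lists, against 12.2% of all protein-coding genes. Because the genes were chosen on such summits, nothing is read from the difference.

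The limit of 100 kb fell between the AREG far site and summits over 200 kb away. The last summit inside it was the AREG far site, at 91.2 kb in both replicates. The first outside it on the EPGN side was at 209 kb in replicate 1, at 74099284 close to the start of the chemokine gene CXCL2, and its −log10 q was 21.0. For replicate 2 the first one stood at 237 kb, at 74071157, and its −log10 q was 14.7. Past BTC the next summit was 722 kb away in replicate 1, with −log10 q of 1.39, and 2253 kb away in replicate 2, with −log10 q of 5.80.

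**Figure D2:**
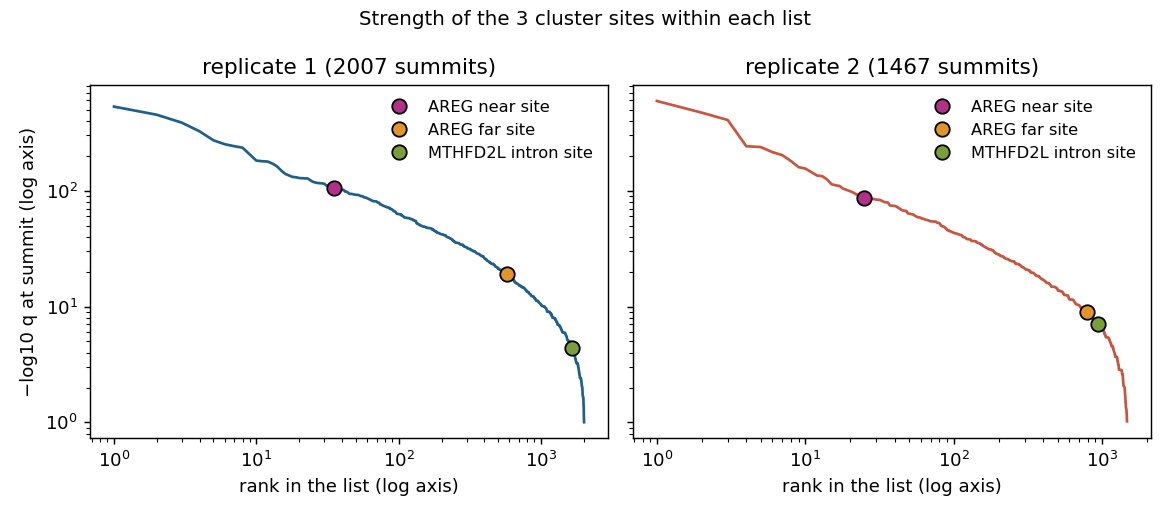
−log10 q of every summit against its rank in the list, both on log axes, for replicate 1 (2007 summits) and replicate 2 (1467 summits), with the 3 cluster sites as filled circles. The AREG near site sits on the upper part of each curve, at ranks 35 and 25, while the AREG far site and the MTHFD2L intron site lie at ranks from 581 to 1639.

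All 3 places were found in both replicates, with summits within 200 bp of each other counted as shared. For comparison, 49.3% of all summits of replicate 1 and 67.5% of those of replicate 2 were shared, which made 990 pairs. An identical summit base, as at the AREG near site, was seen in 45 of the 990 pairs (4.55%). The gaps of 8 and 15 bp at the other two sites were at or under the median gap of 15 bp.

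The replicates ranked the sites in the same order but differed in the values. The value of replicate 1 was 1.22 times that of replicate 2 at the AREG near site and 2.14 times at the AREG far site. At the MTHFD2L intron site it was lower in replicate 1, at 0.619 times. Over the 990 pairs this ratio had a median of 1.58 and lay between 0.506 and 3.68 for the central 90% of pairs, so each of the 3 sites was inside that range. Replicate 1 had the higher value in 75.3% of pairs. A −log10 q depends on depth, and these ratios do not measure binding.

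**Figure D3:**
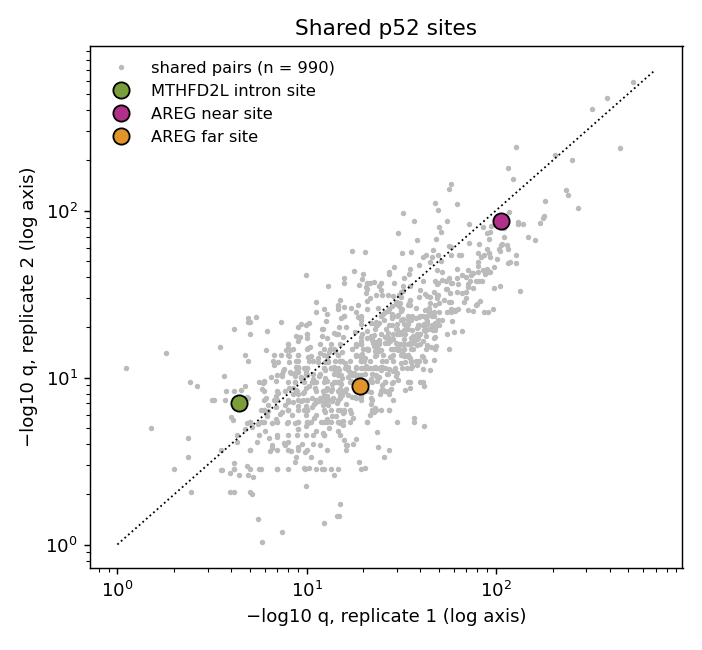
−log10 q in replicate 2 against replicate 1 (both log axes) for the 990 shared pairs (grey points), with the cluster sites as coloured circles and equality as a dotted line. The AREG near and far sites fall below the line, as 75.3% of pairs do, and the MTHFD2L intron site falls above it.

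Binding beyond AREG was distal by any start site. The nearest annotated start site to the AREG near site belonged to AREG itself, 56904 bp away, and that of the AREG far site belonged to the long non-coding RNA gene ENSG00000249942, 43279 bp away in replicate 1 and 43287 bp in replicate 2. Both were over 40 kb from any start site, as were 7.21% of all summits in replicate 1 and 8.65% in replicate 2. Among those 130 and 106 distal summits the AREG near site took rank 2 in each list. The AREG far site was 34 of 130 and 63 of 106. It lay just past the limit of 40 kb, which was not varied, so these ranks hold for that limit alone. Distance was the only link to AREG, since contacts between these sites and its promoter were not analysed here.

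κB matches lay at both AREG sites and not at the MTHFD2L intron site, in both replicates. That is 2 of 3 summits in each list, where 52% of all summits of replicate 1 (exact 95% CI 49.7 to 54.3) and 57.3% of replicate 2 (exact 95% CI 54.5 to 60.1) had a match within 100 bp. These intervals cover counting error over summits alone. With 3 summits the share of the cluster cannot be told apart from either background.

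At the AREG near site the match was an 11-base run, GGGGATTTCCC, at 74505527 to 74505537. It holds 2 overlapping consensus matches, GGGGATTTCC and GGGATTTCCC, and ends 6 bp before the summit of both replicates. The same run stood within 100 bp of 183 summits of replicate 1 and 163 of replicate 2, on either strand. Among these the AREG near site took rank 3 in replicate 1 and rank 2 in replicate 2, and their median −log10 q was 16.2 and 11.6. The run occurs 1859 times on chromosomes 1 to 22, X and Y, so most of its occurrences had no summit.

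At the AREG far site the match was a 12-base run, GGGGAATTCCCC, at 74546193 to 74546204, which reads the same on both strands. It holds 3 overlapping consensus matches, and the summits of both replicates lay inside it. A summit inside a κB match was seen at 22.1% of all summits in replicate 1 and 22.9% in replicate 2. The run stood at 36 summits of replicate 1 and 35 of replicate 2 and occurs 171 times in the reference. Among those summits the AREG far site was 22 of 36 and 26 of 35, in the lower part of each, while the medians were 22.3 and 13.7. Of the 2 κB runs beyond AREG, the longer one lay at the weaker summit in both replicates.

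The MTHFD2L intron site had no exact match within 250 bp. Allowing 1 mismatch gave 3 matches in its window. Of these, AGGGTTTTCC at 74231284 to 74231293 was closest to the summit of replicate 1. Its centre lay 12.5 bp from that summit and 2.5 bp from the summit of replicate 2. Such a loose match was found at 74.7% and 75% of all summits.

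**Figure D4:**
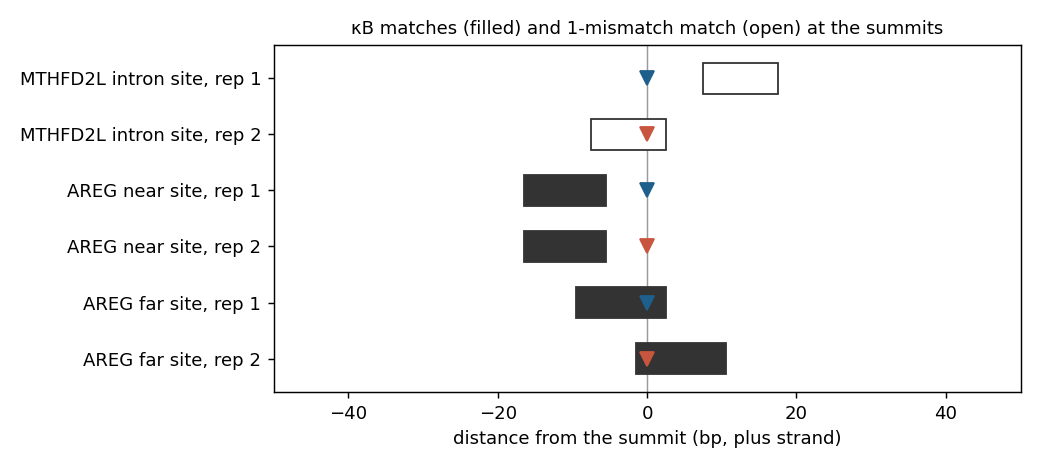
Position of κB matches (filled boxes) and of 1 match with 1 mismatch (open boxes) in bp from the summit (triangle), for each site and replicate. The open boxes mark the match closest to the summit of replicate 1. The κB run of the AREG near site ends 6 bp before both summits, and that of the AREG far site covers both summits.

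AP-1 sites were examined because the study followed AP-1 factors after TWEAK. No TGACTCA or TGAGTCA, the letters sought on both strands, lay within 250 bp of any of the 3 summits, in either replicate. Within 100 bp the count was 0 of 3, where 7.93% of all summits had a match in replicate 1 and 7.67% in replicate 2. With 3 summits, a count of 0 cannot be told apart from these shares. The sequence within 100 kb of the ligand genes did hold AP-1 letters, with 102 matches in 596301 bp, and none of them was near a summit. Nor did TGACGTCA, the cAMP response element, or GGAATG, the TEAD motif, occur within 250 bp of the summits.

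κB matches were likewise far more numerous than summits. The same 596301 bp held 52 of them, of which 5 were the overlapping matches of the AREG sites and 47 had no summit within 100 bp. The share near a summit was 9.62%, and over chromosomes 1 to 22, X and Y it was 0.476% of 446679 matches. The members' share follows from the choice of this region. Of the 52, BTC held 7 within its gene body of 49765 bp and EREG held 1 within 23605 bp. EPGN, 8320 bp long, and AREG, 9870 bp long, held none. With 8.72 matches per 100 kb over the region, counts in genes of such unequal length are not compared. No summit lay at any of the matches within gene bodies.

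Among the promoters of the ligand genes, κB letters were found at BTC, which had no summit. All 4 promoters were matched in RefSeq (GRCh38.p14), each from 250 bp before to 50 bp after the start. BTC had 2 κB matches, starting 90 and 23 bp before its start site, while 11.3% of 35116 promoters of this length had at least 1. AREG had a cAMP response element 65 bp before its start, found in 1.85% of promoters, and no κB match. EPGN and EREG had neither, and no promoter of the 4 held an AP-1 match. The promoters of AREG and BTC are shown on the strand of the gene, with the cAMP response element of the first and the κB matches of the second in capitals, as places without a summit.
AREG promoter, chr4:74444886-74445185: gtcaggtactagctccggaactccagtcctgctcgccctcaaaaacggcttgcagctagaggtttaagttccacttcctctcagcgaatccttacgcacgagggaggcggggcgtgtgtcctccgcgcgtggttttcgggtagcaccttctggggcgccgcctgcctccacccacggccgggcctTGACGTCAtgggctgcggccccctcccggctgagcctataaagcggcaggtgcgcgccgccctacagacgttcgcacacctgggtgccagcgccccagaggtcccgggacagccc
BTC promoter, chr4:74794474-74794773: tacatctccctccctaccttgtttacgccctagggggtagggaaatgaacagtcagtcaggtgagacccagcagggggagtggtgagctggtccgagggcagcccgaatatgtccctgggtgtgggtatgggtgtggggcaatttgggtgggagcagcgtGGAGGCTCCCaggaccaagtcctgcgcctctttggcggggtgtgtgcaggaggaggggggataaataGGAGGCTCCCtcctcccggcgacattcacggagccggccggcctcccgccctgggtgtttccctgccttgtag

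The closest κB match to the start of AREG, GGGAGTCTCC at 74443865 to 74443874, was 1.27 kb upstream of its 5′ end and had no summit either. The summits beyond AREG therefore stood at κB letters that were neither the closest to the gene nor the only ones there.

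Whether reads could be placed was checked from the reference. At the MTHFD2L intron site and the AREG far site all 171 of the 31-mers in the window occurred once in the reference without alternate sequences. At the AREG near site 67.3% did, and the rest occurred up to 15 times. Of the 21 31-mers that span its κB run, 13 occurred once. The part that repeated sequence plays in the strength of the AREG near site was not tested. GC content was 52.2% at the AREG near site, close to the median over all summits of 51.7% and 51.2%. It was 43.3% at the MTHFD2L intron site and 36.3% at the AREG far site, both below the lower quartile of 44.8% of each list.

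For the wider pathway, a list of 26 genes of EGFR signalling was drawn up with earlier results of these data known, covering ligands, receptors, ligand shedding, adaptors and feedback inhibitors. A summit within 100 kb was found for 6 of the 26 in replicate 1 (23.1%) and 3 in replicate 2 (11.5%), against 25% and 16.8% of all protein-coding genes. A shared site was found for 1 of 26 (3.85%), against 12.2%. With counts this small no difference between the list and other genes is read, and its direction turned with the distance, since within 50 kb the same counts of 6 and 3 stood against 16.7% and 10.7% of all protein-coding genes.

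Among the 7 other ligands of the family, EGF, TGFA, HBEGF, NRG2, NRG3 and NRG4 had no summit within 100 kb in either replicate. The nearest summit to TGFA and HBEGF, which encode widely made EGFR ligands, was 358 and 973 kb away in replicate 1. NRG1, a neuregulin that binds ERBB3 and ERBB4, had 1 summit in its gene body in replicate 1, with −log10 q of 4.12 and rank 1658, and none in replicate 2. Among the 11 ligand genes examined, AREG and EPGN had a shared site, where 12.2% of all protein-coding genes had one. The 4 genes of the cluster were chosen on such summits, so nothing is read from the contrast with the 7 others.

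Among the receptors, ERBB3 alone had a shared site, at 56117654 and 56117618 on chromosome 12. Its −log10 q was 50.4 and 20.7, its rank 142 and 314, and its distance from the gene 14149 and 14113 bp. That site held neither a κB nor an AP-1 match, and its nearest start site was that of ESYT1, 596 and 632 bp away. EGFR itself had 1 weak summit in its gene body in replicate 1, at 55079150 on chromosome 7, with a κB match, −log10 q of 5.42 and rank 1517. In replicate 2 the nearest summit to EGFR was over 4 Mb away, at 4132 kb. ERBB2 and ERBB4 had none within 100 kb.

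Of the genes for shedding, ADAM17, whose product cuts AREG and other ligands from the membrane, had 1 summit in each list. These were 321 bp apart, at −log10 q of 7.39 and 4.91, and so were not counted as shared. RHBDF2, a partner of ADAM17, had 1 in replicate 1 with −log10 q of 5.13, and RHBDF1 had 1 in replicate 2 with −log10 q of 5.45. Of the adaptors SHC1 had summits in replicate 1 only, the strongest with −log10 q of 3.98. None of the 6 feedback inhibitors ERRFI1, LRIG1, CBL, SPRY2, SPRY4 and DUSP6 had one. CXCL2, ADAM17 and the genes here that had summits in 1 list were named after their values were seen.

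**Figure D5:**
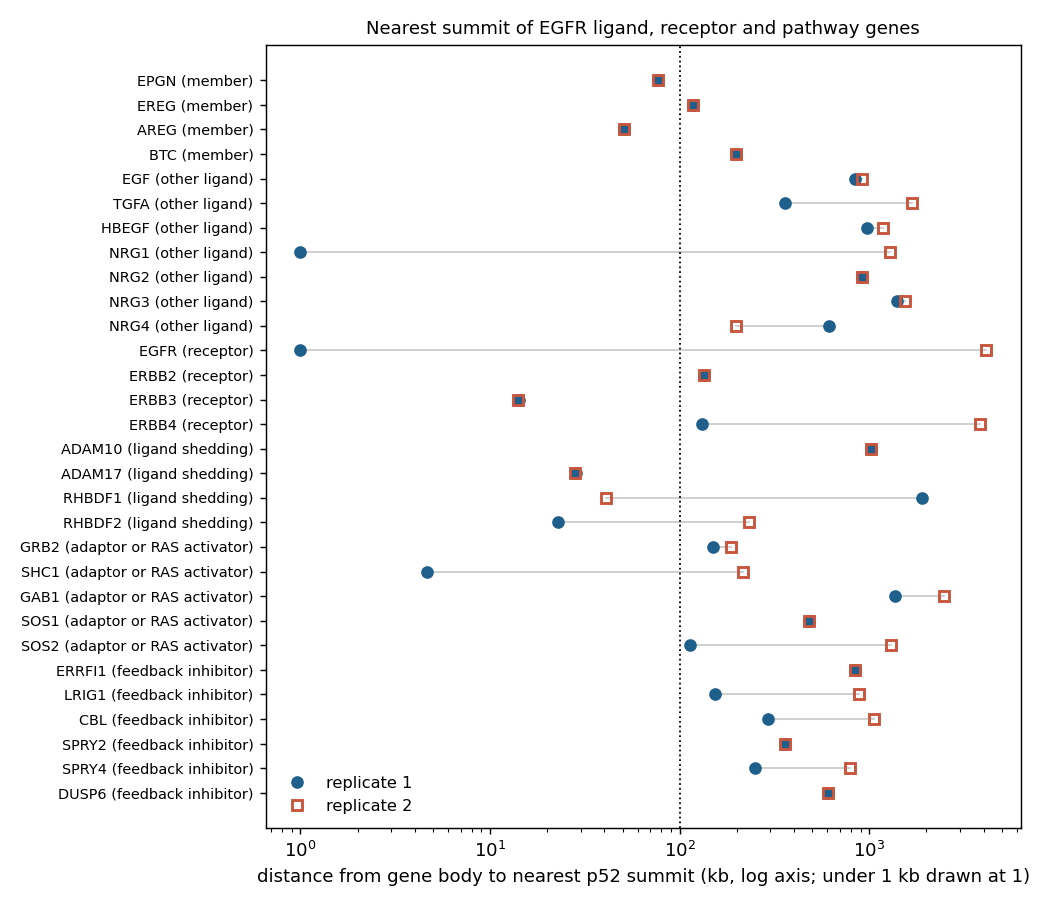
Distance in kb (log axis) from the gene body to the nearest p52 summit of replicate 1 (filled circles) and replicate 2 (open squares) for the 4 ligand genes of the cluster and 26 genes of EGFR signalling; the dotted line is 100 kb and a distance under 1 kb is drawn at 1. AREG (50.5 kb in both), EPGN (77.2 kb in both), ERBB3 and ADAM17 lie left of the line in both replicates.

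Genes elsewhere with a shared site of like strength were sought by rank, taking the strongest shared site within 100 kb of each protein-coding gene over 1 Mb from the cluster. Likeness was the summed difference in rank percent from the AREG near site over the 2 lists, among 2435 genes. ATP6V1E2, EPAS1, RHOQ and TMEM247 came first and share 1 site on chromosome 2, at 46477901 and 46477900, where −log10 q was 102 and 89.7 and the rank 41 and 24. LRRC52 was next, tied with RXRG, through a site at 165482400 on chromosome 1 in both replicates, with −log10 q of 117 and 98.8. The genes that shared a site were not independent of each other.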

How the data were processed

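p52 ChIP-seq was analysed in 2 replicates of TWEAK-treated MDA-MB-231 cells. According to the study's methods and the processing notes, adaptors were removed with Trimmomatic, reads mapped to hg38 with Bowtie2, peaks called per replicate with MACS2 against input, and blacklisted regions removed with bedtools. Versions, the q threshold and the treatment of duplicates are not given in the sources used here. The deposited value per 1-bp summit was read as −log10 of the q-value from the column layout, since the lists have no header. It depends on depth, which is unknown, so sites were compared by rank within a list. Multiples of a list's median and ratios between replicates are given as a description and do not measure binding. Peak numbers ran up to 4210 and 4732, so the lists hold part of the called peaks.

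Sequence came from hg38, genes from GENCODE release 44, and promoters from RefSeq. Matches had to lie wholly within 100 bp of a summit on either strand. The κB consensus was 3 G, a purine, any 2 bases, 2 pyrimidines and 2 C. Summits of the 2 lists within 200 bp were paired one to one. The scripts were tested on simulated data and used Python 3.11.15, numpy 2.4.6, scipy 1.17.1, pysam 0.24.0, samtools 1.23.1 and matplotlib 3.10.9. The members, the gene list, the motifs and the alternatives were chosen with earlier results of these data known. The genes named were the 4 ligand genes, those with the start nearest to a cluster summit, list genes with a shared site, and the 5 genes most like the cluster by rank. No test was run, because there was 1 group and the members were chosen on these summits.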

Additional observations from a re-analysis of the deposited data

How the results depend on the processing

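The counts of the cluster rested most on the distance limit and on the weaker summits. Within 50 kb of the gene bodies, the 3 summits of each replicate, the 3 shared sites and the 3 distinct sites all became 0, because the AREG near site lies just beyond that distance, while within 200 kb all of these were 3. In the stronger 50% of each list, replicate 1 kept 2 of its 3 summits and replicate 2 kept 1, so 1 site, the AREG near site, was still shared. There κB matches lay at 2 summits of replicate 1 and 1 of replicate 2. Of all summits in the stronger 50%, 64% in replicate 1 and 67.2% in replicate 2 had a match. Leaving out either replicate gave 3 distinct sites, as did sharing distances of 100 and 500 bp. With 1 mismatch allowed, AP-1 matches rose from 0 to 1 of 3 summits in each replicate, where such matches stood at 46.0% and 46.6% of all summits. The genes of EGFR signalling with a summit rose from 6 to 11 in replicate 1 and from 3 to 6 in replicate 2 within 200 kb, where 36.8% and 26.2% of all protein-coding genes had one, and were 1 in each replicate in the stronger 50%, where the share of all protein-coding genes also fell, to 12.8% and 7.83%. Within 50 kb they were still 6 and 3, against 16.7% and 10.7% of all protein-coding genes, so that the list lay above the other genes there and below them within 100 kb. Of 63 alternative values, 41 stayed within 1.5 times the reported one. The 63 include shares of all summits and of all protein-coding genes, and AP-1 counts that stayed at 0. This tally therefore does not describe the counts of the cluster alone. Unknown depth limits every statement that a summit is missing. Peaks that are not in the lists limit such statements outside the stretch around the cluster where peak numbers were checked. No paired analysis was possible because there was 1 group.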
